A study of Mus musculus with 7 samples.

Results

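RelB binding was compared in wild-type (WT) mouse bone marrow-derived dendritic cells (BMDCs) after 1 h of lipopolysaccharide (LPS) and before it (0 h), across all 93611 of the 93611 deposited regions. Members were all regions of the table, and the comparison rested on 2 of the 7 libraries of the series. How the authors picked these regions is unknown, so a choice by measured signal is possible. RelB chromatin immunoprecipitation (ChIP) followed by sequencing gave 1 library of WT C57BL/6 BMDCs treated with LPS at 10 ng/mL for 1 h and 1 library of untreated WT C57BL/6 BMDCs. The input was 1 library of WT cells, and its labels carry no time or treatment. The RelB ChIP of RelBko BMDCs, which lack RelB, at 1 h and at 0 h and the RelA ChIP of WT BMDCs at 1 h served as background. All cells were grown from marrow with GM-CSF (20 ng/ml) plus IL-4 (10 ng/ml), and about 10 M cells went into each sample. The labels do not say whether libraries came from separate cultures or animals, or whether marrow was pooled. The antibody label of these libraries names RelB, while the shared protocol text names an antibody to RelA, and the treatment text names a CpG oligonucleotide product beside LPS. LPS is kept as its name, as the sample titles have it. With 1 library per group, an effect of LPS and variation between libraries cannot be told apart, so differences are given by size, with no test.

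RelB is a DNA-binding subunit of the NF-kB family that pairs mainly with the p52 product of Nfkb2 or the p50 product of Nfkb1. In the noncanonical pathway, TRAF adaptors and cIAP ubiquitin ligases hold the kinase NIK low, and release of NIK lets p100 be processed to p52. Dendritic cells are known for high RelB, and mice without RelB have defects in dendritic cells. NF-kB dimers bind short DNA motifs called kB sites at promoters and distal enhancers, among them those of their own inhibitors.

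The sequences below show kB motifs at promoters with high RelB signal, at the Il6 promoter, or where signal was 2-fold or more higher at 1 h. Each is read from the RefSeq promoter table (build GRCm38.p6, 250 bases before to 50 after the gene's start), 5′ to 3′ on the strand of the gene. Capitals mark the core GGANNTTCC, searched on both strands, so a core on the opposite strand appears as its reverse complement. The Nfkbia promoter (chr12:55492598-55492897, minus strand), the strongest RelB promoter, is shown whole because it holds both cores.
Nfkbia promoter: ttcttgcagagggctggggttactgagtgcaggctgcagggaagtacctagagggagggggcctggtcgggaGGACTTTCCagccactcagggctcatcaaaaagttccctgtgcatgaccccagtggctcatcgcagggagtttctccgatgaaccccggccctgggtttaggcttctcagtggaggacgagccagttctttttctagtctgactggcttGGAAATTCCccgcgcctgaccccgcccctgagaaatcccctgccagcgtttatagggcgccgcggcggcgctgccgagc
The first sites are those of the 4833438C02Rik promoter (chr19:46305706-46305714, minus strand), Cxcl10 (chr5:92349039-92349047, minus), Tnf (chr17:35202211-35202219, minus), Nfkbie (chr17:45555624-45555632, plus) and, at a lower RelB signal, Il6 (chr5:30013071-30013079, plus), each with its flanks.
4833438C02Rik: gtgctgcttaGGAAAGTCCcgaaaatacc
Cxcl10: gaggggagagGGAAATTCCaagttcatgg
Tnf: acgacggggaGGAGATTCCttgatgcctg
Nfkbie: ggctctacccGGAAGCTCCtttgagggcg
Il6: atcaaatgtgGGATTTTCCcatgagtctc
Sites at promoters that were 2-fold or more higher at 1 h are those of Tnfaip2 (chr12:111442574-111442582, plus), Gch1 (chr14:47189644-47189652, minus), Cxcl1 (chr5:90891175-90891183, plus), Ccl12 (chr11:82101828-82101836, plus), Acod1 (chr14:103046927-103046935, plus), Isg15 (chr4:156200851-156200859, minus) and Myd88 (chr9:119340006-119340014, minus).
Tnfaip2: gtccgccagcGGATTTTCCgcggttgcgg
Gch1: tttctatctcGGAGGTTCCagctccccgg
Cxcl1: ctgtactccgGGAATTTCCctggcccgga
Ccl12: aaagtcagatGGAACTTCCaggggagcag
Acod1: ttgaaatggtGGAAATTCCatggttgaaa
Isg15: tctggtttctGGAAACTCCgcctcttcac
Myd88: aagggaagtaGGAAACTCCacaggcgagc
Except for Nfkbia, 4833438C02Rik and Il6, these were chosen after their values were seen. Coordinates of sequences are in GRCm38.p6, and coordinates of regions in all that follows are in mm9, the build of the deposited table.

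RPKM, as the authors deposited it, is a read count divided by the length of the region and by the library total. From the RPKM steps, 28425471 reads were recovered at 1 h and 35064429 at 0 h, with 42.4% of these in the regions at 1 h and 38.4% at 0 h. In the RelBko RelB libraries 4.62% of reads lay in the regions at 1 h and 7.41% at 0 h, and in the input 3.52%. A region was enriched when it had at least 2 RPKM and at least 2-fold the input after adding 0.5 RPKM, which held for 76450 regions at 1 h and 71023 at 0 h. The 80966 regions enriched in at least 1 of the pair were compared on log2 of RPKM plus 0.5. Intervals below are exact (Clopper-Pearson) 95% intervals, and they cover counting error only.

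RelB signal was within 2-fold at most regions. Of the 80966 compared regions, 8901 (11.0%) were 2-fold or more higher at 1 h and 1358 (1.68%) were 2-fold or more lower. Setting the median ratio of the compared regions to 1 moved the median log2 by 0.14 and gave 6823 higher and 2511 lower. Scaling on regions enriched in neither library gave 6331 higher and 2779 lower. Higher regions were of moderate strength, with a median of 7.38 RPKM at 1 h, against 2.29 RPKM at 0 h, and 47.2% of them were already enriched at 0 h. Lower regions had a median of 2.14 RPKM at 1 h, against 5.49 RPKM at 0 h, and 45.8% were still enriched at 1 h. Introns made up 49.3% of the higher and 50.7% of the lower regions, against 43.7% of all compared regions, and intergenic regions 40.6% and 41.8%, against 38.7%. Promoters were 4.65% of the higher and 2.65% of the lower regions, against 12.0% of all compared.

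The division of RelB reads between promoters, introns and distal regions was nearly the same at both times. Promoters held 13.88% of the reads in regions at 1 h (13.86 to 13.90%) and 13.56% at 0 h (13.54 to 13.58%), a difference of 0.324 percentage points. Introns within 10 kb of a transcription start site (TSS) held 15.71% at 1 h and 15.13% at 0 h, and introns beyond 10 kb 26.70% at 1 h and 27.15% at 0 h. Intergenic regions within 100 kb held 32.82% at 1 h and 33.23% at 0 h, and those beyond 100 kb 5.77% at 1 h and 5.99% at 0 h. Exons, UTRs and gene ends held 5.11% at 1 h and 4.95% at 0 h. The widest difference of any class was 0.584 points, in introns within 10 kb. The RelBko RelB libraries differed more, with 16.3% in promoters at 1 h and 20.3% at 0 h, and the RelA library of WT cells had 17.1%. Taking the RelBko RelB library of the same time off the WT reads gave promoters 13.55% at 1 h and 11.92% at 0 h, a difference of 1.63 points, and turned the intron difference from 0.135 to -0.410 points.

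**Figure D1:**
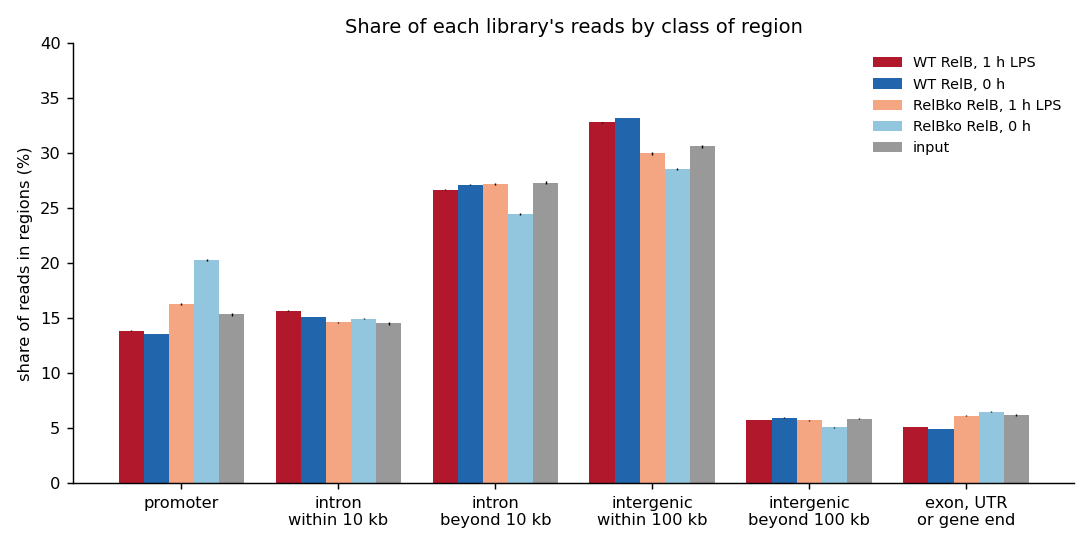
Share of each library's reads in regions (%), by class of region, for WT RelB at 1 h and 0 h, RelBko RelB at 1 h and 0 h and the input; bars are single libraries and the error bars exact 95% counting intervals. The WT pair differs by less than 1 point in every class, and the promoter bars of RelBko RelB stand at 16.3% at 1 h and 20.3% at 0 h.

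Promoters were the class with the fewest regions past 2-fold. Among 9718 compared promoters 414 (4.26%) were higher at 1 h and 36 (0.370%) lower. Among 35386 introns 4389 (12.4%) were higher and 689 (1.95%) lower, and among 31341 intergenic regions 3612 (11.5%) were higher and 567 (1.81%) lower. The median log2 change was 0.17 at promoters, 0.13 in introns and 0.12 between genes, and scaling on regions enriched in neither library turned all 3 to -0.01, -0.05 and -0.06. Promoters varied less among themselves, with quartiles of -0.04 and 0.39, against -0.24 and 0.58 in introns. Promoters had the lowest share of higher regions in each of 5 equal bins of mean RPKM. In the weakest bin (1.099 to 3.23 RPKM) 11.7% of promoters, 19.6% of introns and 17.6% of intergenic regions were higher. In the strongest bin (18.8 RPKM and above) these shares were 4.50%, 6.38% and 5.70%.

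The share of higher regions also differed with distance to the TSS. The distance bins mix promoters with nearby introns and exons, so distance was not separated from class. Within 100 bp of a TSS 1.98% of 5546 compared regions passed 2-fold upward, and between 100 and 500 bp 5.29% of 5751. Between 500 and 1000 bp the share was 12.6% of 2505 regions, and between 1000 and 2000 bp 13.7% of 2840. Farther out it stayed between 11.9% and 13.0% up to 100 kb and was 10.8% beyond. The share of lower regions was 0.270% within 100 bp and 2.55% beyond 100 kb. The median log2 change was largest, at 0.29, between 500 and 1000 bp and smallest, at 0.06, beyond 100 kb. In the RelBko RelB libraries the median over the same regions was -0.85 within 100 bp and -0.31 beyond 100 kb. This signal without RelB moves with distance too, and its part in the WT pattern was not tested beyond the subtraction above.

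**Figure D2:**
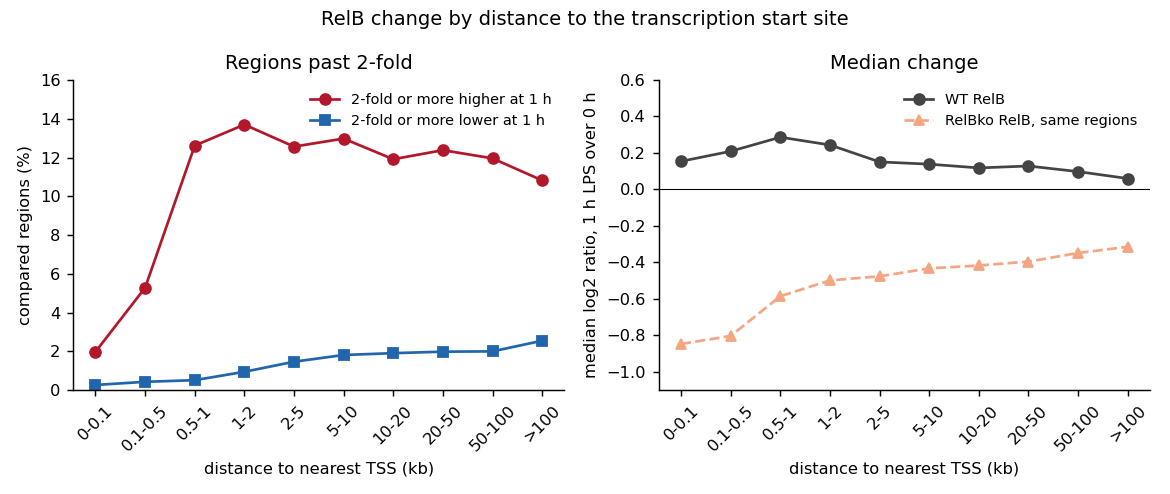
Left, share of compared regions (%) 2-fold or more higher and lower at 1 h by distance to the nearest TSS (kb); right, median log2 ratio of 1 h LPS over 0 h for WT RelB and for RelBko RelB in the same regions. The share of higher regions is 1.98% within 0.1 kb and 12.6% at 0.5 to 1 kb; the WT medians lie above 0 as deposited, and a scaling on unenriched regions turns the class medians below 0.

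The strongest RelB regions were weaker at 1 h. Of the 100 regions with the highest mean RPKM, 86 had less signal at 1 h than at 0 h, with medians of 132 RPKM at 1 h, against 169 RPKM at 0 h and a median log2 of -0.38. Of the top 1000, 641 had less at 1 h (median -0.15), 22 were 2-fold or more lower and 10 higher. Over the top 10000 the median was 0.07. The top 1000 held 8.07% of the reads in regions at 1 h and 9.98% at 0 h. Ranked in each library alone, the 1000 strongest regions at 1 h shared 626 with those at 0 h, which is 62.6% of each list. The 374 regions that were in the list at 1 h alone included 36 promoters, 154 introns and 169 intergenic regions, and the 374 at 0 h alone included 25, 156 and 178. Only 59 of those in the list at 1 h alone and 36 of those at 0 h alone differed by 2-fold.

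**Figure D3:**
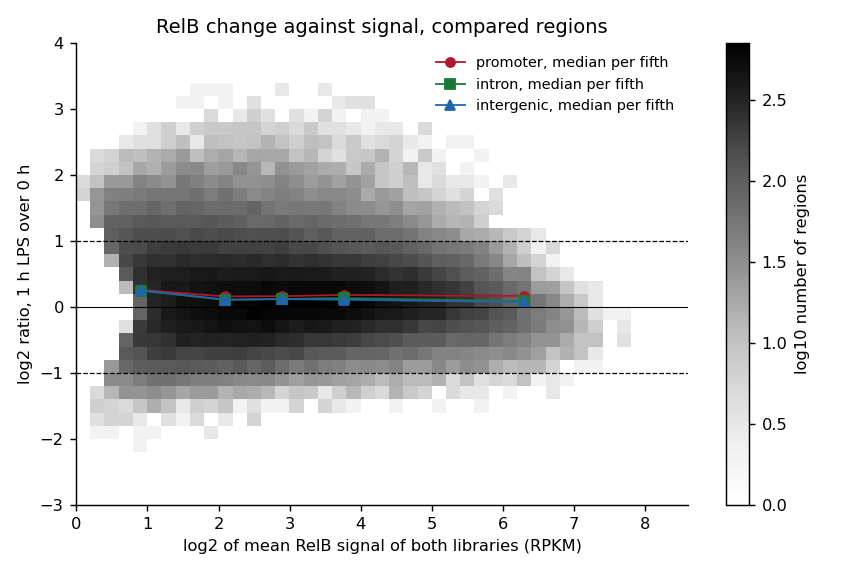
Log2 ratio of 1 h LPS over 0 h against log2 of the mean RelB signal (RPKM) of the pair, with the grey scale giving the log10 number of compared regions and symbols the median of promoters, introns and intergenic regions in each of 5 bins of signal. Rises of 2-fold or more, above the upper dashed line, are most common at weak and moderate signal, and the tail of strongest regions lies mostly below 0.

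Most of the strongest regions named here had less RelB signal at 1 h, and an intronic region of Nfkbia and the Traf3 promoter passed 2-fold. Nfkbia encodes IkB-alpha, the inhibitor that holds NF-kB in the cytoplasm and is itself an NF-kB target. Its promoter (chr12:56593546-56593910), whose sequence with both kB cores is given above, had 207 RPKM at 1 h, against 328 RPKM at 0 h and 1.87 RPKM in the input. An intronic region of Nfkbia (chr12:56592729-56593084), 728 bp downstream of the TSS, had 102 RPKM at 1 h, against 326 RPKM at 0 h, the largest drop by log2 of any region at 10 RPKM or more at 0 h. The ratio of the intronic region was 0.312 (0.291 to 0.335), and that of the promoter 0.631 (0.599 to 0.665). RelA at 1 h had 101 RPKM in the intron and 190 RPKM at the promoter. In RelBko cells the RelB ChIP gave 5.62 RPKM at 1 h, against 20.6 RPKM at 0 h in the intron, a log2 change of -1.78 on a far lower level.

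Traf3 encodes an adaptor that promotes the degradation of NIK. Its promoter (chr12:112404410-112404764) had 121 RPKM at 1 h, against 244 RPKM at 0 h, with a ratio of 0.497 (0.464 to 0.531) that lay at the threshold. The strongest region of all at both times lay 8304 bp upstream of Gtf3c5, a subunit of an RNA polymerase III factor, with 282 RPKM at 1 h, against 376 RPKM at 0 h. The promoter of 4833438C02Rik, which borders Nfkb2 in the RefSeq gene table, had 176 RPKM at 1 h, against 212 RPKM at 0 h. Creb1, which encodes a cAMP-responsive transcription factor, had 114 RPKM at 1 h, against 185 RPKM at 0 h at its promoter. Rnf19b, a ubiquitin ligase gene, had 174 RPKM at 1 h, against 295 RPKM at 0 h 25433 bp upstream. Ehd1, an endocytic recycling gene, was the exception among the strongest 5 promoters, with 173 RPKM at 1 h, against 148 RPKM at 0 h. In introns of Cmtr1, Mob3a and Bloc1s6 and near Nrp2 and Sbno2 the ratios ran from 0.664 to 0.959. Another region classed as intronic lay 175867 bp upstream of the TSS of Bcl2l14, its nearest gene, and had a ratio of 0.714.

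The largest rises started from almost no RelB signal and none was at a promoter. They were picked by ratio among regions at 10 RPKM or more at 1 h, which favours low values at 0 h. Promoters were 4.65% of all higher regions, so their absence from so short a list shows no difference between classes. A region 21228 bp upstream of Khdc1a (chr1:21318356-21318705) had 25.03 RPKM at 1 h, against 1.14 RPKM at 0 h. An intron of Mtmr12, a myotubularin gene, had 16.3 RPKM at 1 h, against 0.588 RPKM at 0 h, and a region 153190 bp from Cdh26, a cadherin gene, had 11.1 RPKM at 1 h, against 0.342 RPKM at 0 h. In Pvr, which encodes an adhesion receptor of the nectin-like family, an intronic region (chr7:20494104-20494417) had 22.5 RPKM at 1 h, against 1.27 RPKM at 0 h, and another (chr7:20498812-20499365) 27.8 RPKM at 1 h, against 1.85 RPKM at 0 h. The intron of Rora, an orphan nuclear receptor gene, had 14.2 RPKM at 1 h, against 0.908 RPKM at 0 h. RelA at 1 h stood at 22.9 RPKM near Khdc1a, 18.8 RPKM in Mtmr12 and 5.43 RPKM in Rora. All of these regions rested on 36 reads or fewer at 0 h, so the ratios are loosely bounded, as at Khdc1a with 21.9 (12.8 to 40.7).

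The largest drops after the Nfkbia intron were at weaker distal and intronic regions. Whrn, which encodes a scaffold protein of hair cells, had an intronic region with 7.60 RPKM at 1 h, against 23.9 RPKM at 0 h. Ero1lb, an oxidase gene of the endoplasmic reticulum, had 10.4 RPKM at 1 h, against 31.6 RPKM at 0 h in an intron. Jam3, a junctional adhesion molecule gene, had 5.71 RPKM at 1 h, against 18.4 RPKM at 0 h 20932 bp upstream. Regions near 1700007F19Rik, Atp11a, 4930459C07Rik and Dr1 had ratios between 0.296 and 0.313. These regions were chosen for their RelB signal at 0 h, so RelA is set beside RelB at 1 h. RelA at 1 h had 2.53 RPKM in Ero1lb and 3.11 RPKM in Whrn, below RelB at 1 h. It was also below RelB at Nfkbia, Atp11a, 4930459C07Rik and Dr1, by little except at Atp11a. It was above RelB near 1700007F19Rik (4.61 RPKM, against 4.13 RPKM of RelB) and Jam3 (6.69 RPKM).

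The promoters with the largest rises and falls were chosen after their values were seen. Adora2a, which encodes an adenosine receptor that restrains inflammation, had 27.5 RPKM at 1 h, against 2.58 RPKM at 0 h at its promoter. Ikbke, the gene of the NF-kB-inducible kinase IKK-epsilon, had 17.6 RPKM at 1 h, against 2.19 RPKM at 0 h. Arl14, Nop9 and Myo7a had 10.3, 10.8 and 13.5 RPKM at 1 h and 1.01, 1.09 and 1.75 RPKM at 0 h. On the falling side, Mir1932 had 26.0 RPKM at 1 h, against 74.4 RPKM at 0 h, and the zinc finger genes Rsl1 and Zfp429 had 12.7 and 15.4 RPKM at 1 h and 35.7 and 38.7 RPKM at 0 h. Fkbp5, a chaperone gene known as a glucocorticoid target, had 5.59 RPKM at 1 h, against 13.6 RPKM at 0 h.

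Among promoters with the core GGANNTTCC, 2-fold rises were more frequent than among the rest. Each gene was taken with its strongest compared promoter region, by mean RPKM, centred within 250 bp of a TSS. Of these 7390 regions, 1 per gene, 4588 matched a RefSeq promoter by symbol. Among the matched regions 113 (2.46%) were higher and 17 (0.371%) lower. The core GGANNTTCC was in 259 of the 4588 matched promoters (5.65%), against 4.26% of all 32851 RefSeq promoters. The matched promoters are those of genes with a single RefSeq start and a compared region, so these sets are unlike. GC boxes, for example, were in 69.6% of the matched and 35.7% of all promoters. Percentages of all promoters here and below therefore show no enrichment of a motif. Of the 259 with a core 18 (6.95%) were higher and 0 lower, and of the 4329 without a core 95 (2.19%) were higher and 17 lower, a share of lower regions too small to be set apart from the 0 of 259. The medians lay close together, at 0.17 with a core and 0.15 without. Core and CpG content were not separated. Of matched promoters in the lowest of 3 CpG groups 5.10% were higher, and in the highest 0.850%. In 3 equal bins of mean signal, the share of higher regions with and without a core was 10.7% and 2.96% in the weakest, 7.79% and 1.17% in the middle and 3.74% and 2.46% in the strongest. For comparison, the AP-1 motif TGANTCA was in 238 matched promoters (5.19%; 7.81% of all promoters), of which 3.36% were higher. The interferon response motif GAAANNGAA was in 354 (7.72%; 8.56% of all), of which 2.82% were higher, and the ETS motif GAGGAAGT in 185 (4.03%; 3.20% of all), of which 3.24% were higher. A match describes the letters in the window and is not shown to be a bound site. Other forms of kB motif were not searched, so promoters without this core can still hold a kB motif. The form GGGGATTTCC lies in the Traf3 promoter, and its reverse complement in those of Rsl1 and Zfp429. These had log2 changes of -1.01, -1.46 and -1.31, so falling promoters are not shown to lack kB motifs.

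The 18 higher promoters with a core, of which 7 are described here with their values, also included Ccl1, F3, Oas1g, Tmem200b, Ttc9b, Mctp2, Pcsk2, Gm5800, 4930452A19Rik, 4930525D18Rik and 1700119H24Rik. Tnfaip2, a TNF-inducible gene, had 69.1 RPKM at 1 h, against 19.5 RPKM at 0 h. Gch1, which makes the cofactor of nitric oxide synthase, had 50.8 RPKM at 1 h, against 13.5 RPKM at 0 h. The neutrophil chemokine gene Cxcl1 had 14.9 RPKM at 1 h, against 4.74 RPKM at 0 h, and Ccl12 had 19.0 RPKM at 1 h, against 7.70 RPKM at 0 h. Acod1, the enzyme that makes itaconate, had 16.9 RPKM at 1 h, against 7.24 RPKM at 0 h, and the Toll-like receptor adaptor gene Myd88 had 17.4 RPKM at 1 h, against 7.85 RPKM at 0 h. Isg15, a ubiquitin-like interferon-stimulated gene, had 43.0 RPKM at 1 h, against 20.9 RPKM at 0 h. Cores also lay in promoters with less RelB at 1 h, such as Cxcl10 with 83.0 RPKM at 1 h, against 114 RPKM at 0 h and Nfkbie, an IkB gene, with 46.6 RPKM at 1 h, against 82.7 RPKM at 0 h. Among promoters with a core, the lowest log2 changes were those of Mknk2 (-0.96), Cyld (-0.96), 4930578M01Rik (-0.92) and Rfx5 (-0.92), all just short of 2-fold.

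Summed over all regions within 100 kb, RelB reads of single genes changed little. Genes were compared on RPM, reads per 1000000 reads in regions, a scale that removes the difference in the share of reads in regions. Among 5228 genes with 5 or more compared regions, 37 (0.708%) were 2-fold or more higher at 1 h and 1 (0.0191%) was lower, and 93.2% lay within 1.5-fold. At least 1 higher region was found near 58.0% of these genes and at least 1 lower region near 12.5%. In 90 genes at least as many compared regions were higher as were not, and in 0 genes at least as many were lower as were not. Regions are named by their nearest gene, which is not shown to be the gene they act on.

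Foxl1, a forkhead factor gene, had the highest ratio, with 100 RPM at 1 h, against 24.4 at 0 h (ratio 4.11, 3.63 to 4.65). Of its 7 regions 5 were higher, and the strongest, 60079 bp downstream of the TSS, had 49.4 RPKM at 1 h, against 7.02 RPKM at 0 h. Pvr came next, with 295 RPM at 1 h and 95.9 at 0 h, and 9 of its 10 regions were higher. Its promoter had 25.4 RPKM at 1 h, against 10.3 RPKM at 0 h, and 1024 bp upstream it was 115 RPKM at 1 h, against 31.3 RPKM at 0 h. Dusp14, a dual-specificity phosphatase gene, had 83.6 RPM at 1 h and 28.5 at 0 h. Ptges, the inducible prostaglandin E synthase gene, had 47.6 RPM at 1 h and 17.4 at 0 h, and Foxi3 had 83.5 RPM at 1 h and 30.4 at 0 h. Chga, a gene of secretory granules, had 17.6 RPM at 1 h and 6.31 at 0 h.

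Arc, an immediate early gene best known from neurons, was the gene that was 2-fold or more lower, with 79.1 RPM at 1 h and 168 at 0 h. The drop came from a pair of regions 3992 and 4848 bp downstream of the TSS, with 30.3 and 15.6 RPKM at 1 h and 86.2 and 36.7 RPKM at 0 h. The Arc promoter had 20.5 RPKM at 1 h, against 21.8 RPKM at 0 h. Chd2, a chromatin remodeller gene, had 74.7 RPM at 1 h and 147 at 0 h, and 1 intronic region made most of it, with 64.5 RPKM at 1 h, against 135 RPKM at 0 h. Kctd3, Itga2, Fsbp and 9830107B12Rik had ratios of 0.509 to 0.533. None of these 5 had more than 2 lower regions.

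Of the 5228 genes, 324 (6.20%) had both a higher and a lower region. The examples that follow were chosen with their values known. Of them Nfkbia had both, Il12a had higher regions only and Ccr7 had neither. Nfkbia summed to 477 RPM at 1 h and 768 at 0 h, a drop made by its promoter and intron. Around them a region 6319 bp downstream had 20.4 RPKM at 1 h, against 6.99 RPKM at 0 h, and another 27651 bp downstream had 34.3 RPKM at 1 h, against 13.4 RPKM at 0 h. Il12a, the gene of the p35 subunit of interleukin 12, had 246 RPM at 1 h and 110 at 0 h, with 9 of 15 compared regions higher. These lay up to 57865 bp upstream and 18194 bp downstream, such as the region 32808 bp upstream with 32.4 RPKM at 1 h, against 5.70 RPKM at 0 h. The Il12a promoter had 8.71 RPKM at 1 h, against 5.33 RPKM at 0 h and was not called. Ccr7, which encodes the receptor for homing to lymph nodes, had 13 compared regions, none past 2-fold, with 34.3 RPKM at 1 h, against 53.2 RPKM at 0 h at its promoter. Across 3805 genes with a compared promoter and 3 or more other regions, the promoter log2 change was above the median of the other regions in 53.5%, by a median of 0.05. It was 2-fold or more above in 137 genes and below in 106.

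**Figure D4:**
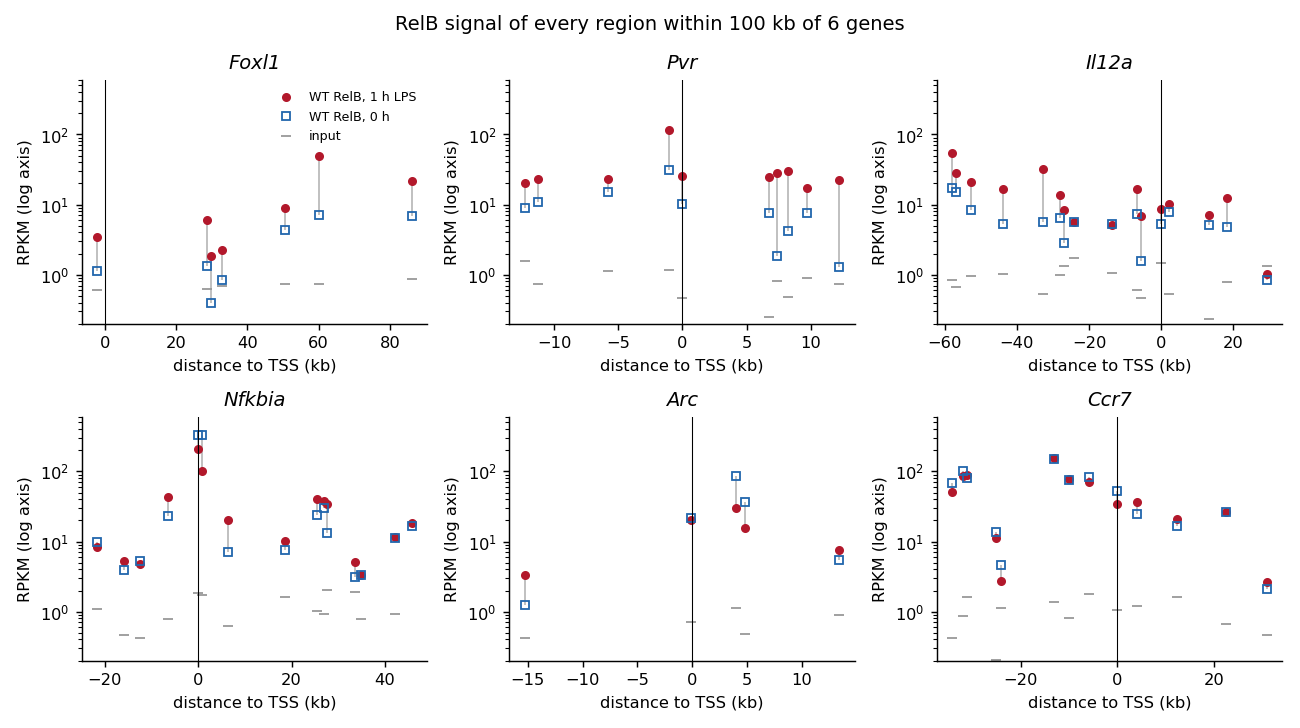
RelB signal (RPKM, log axis) of every region against its distance to the TSS (kb) for 6 genes, with filled circles for 1 h LPS, open squares for 0 h and dashes for the input, each from 1 library. Nearly all regions of Foxl1, Pvr and Il12a are higher at 1 h, Nfkbia and Arc have a few strong regions lower at 1 h beside others that are higher, and the 13 Ccr7 regions stay within 2-fold.

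Higher regions tended to lie beside one another. Of 1372 higher regions whose nearest compared neighbour was within 1000 bp, 362 (26.4%) had a higher neighbour, against 11.0% of all compared regions. The share was 21.4% for neighbours at 1000 to 2000 bp and 10.9% beyond 50000 bp. A lower neighbour within 1000 bp was found for 1 of the 1372. Of 127 lower regions with a neighbour within 1000 bp, 14 (11.0%) had a lower neighbour, against 1.68% of all. Neighbours share fragments and local chromatin, so they are not independent observations.

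Gene groups differed in direction, and those of NF-kB feedback had less of the RelB reads at 1 h. The 100 strongest regions of all genes also had less, with a median log2 of -0.38, and lists were not compared with regions of like signal. Whether lists with strong regions differ from strong regions in general was therefore not tested. The 20 lists held 312 distinct genes, of which 296 had a region within 100 kb. The share of reads in regions was above that at 0 h for 11 lists, below it for 6, and for 3 the counting interval of the ratio included 1. Medians of lists are read against the median of 0.14 over all compared regions, and 14 of 20 lay above it. Shares of regions past 2-fold are read against 11.0% higher and 1.68% lower over all compared regions. Counts of genes beyond counting error have no share over all genes beside them here, and many genes pass such an interval. In the myeloid lineage list 11 of 24 genes had more and 11 had less. In the housekeeping list 5 of 18 had more and 5 had less. A scaling on unenriched regions lowers all medians, and it turned those of the dendritic cell costimulation and the myeloid lineage lists to -0.01.

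The NF-kB subunit and IkB list held 0.273% of the reads at 1 h and 0.333% at 0 h, a ratio of 0.820 (0.808 to 0.831). Of 11 genes 9 had less and 2 had more, beyond counting error. Of its 14 promoters 0 were 2-fold higher and 1 was lower, with a median log2 of -0.31, while its 90 other regions had a median of 0.11 with 18 higher and 1 lower. The share of higher regions in the whole list was 17.3%, against 11.0% of all regions, so that more regions were higher than lower although the summed reads were fewer. The lower promoter was that of Relb itself (chr7:20214655-20215034), with 49.3 RPKM at 1 h, against 104 RPKM at 0 h. Nfkb1, the p50 precursor gene, had 79.0 RPKM at 1 h, against 128 RPKM at 0 h at its promoter, and Nfkb2, the p52 precursor gene, had 82.0 RPKM at 1 h, against 105 RPKM at 0 h. At the Rela and Rel promoters the values were 51.4 and 81.3 RPKM at 1 h and 64.5 and 99.6 RPKM at 0 h. Bcl3 and Nfkbiz, which encode nuclear IkB proteins, went the other way in sum, with 261 and 377 RPM at 1 h and 224 and 286 at 0 h. The Nfkbiz gain was distal, with 64.4 RPKM at 1 h, against 29.4 RPKM at 0 h 32877 bp downstream and 125 RPKM at 1 h, against 109 RPKM at 0 h, at its promoter.

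The list of TRAF, cIAP and NIK genes, which control the noncanonical pathway, had a ratio of 0.843 (0.829 to 0.857). Traf2, an adaptor that joins cIAPs to TRAF3, had 116 RPM at 1 h and 244 at 0 h. Most of that was a region 12543 bp into the gene, with 59.0 RPKM at 1 h, against 150 RPKM at 0 h. Birc3, a cIAP gene, had 171 RPM at 1 h and 280 at 0 h, and Map3k14, the NIK gene, 193 RPM at 1 h and 217 at 0 h. Traf1 differed little, with 584 RPM at 1 h and 589 at 0 h. The ubiquitin editors had a ratio of 0.924 (0.910 to 0.939). Among them Tnfaip3, the gene of A20, had 738 RPM at 1 h and 744 at 0 h in sum, but 117 RPKM at 1 h, against 161 RPKM at 0 h at its promoter. Cyld, a deubiquitinase gene, had 77.2 RPM at 1 h and 118 at 0 h, and Tnip3 had a ratio of 0.825.

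Genes of antigen presentation had less of the RelB reads in sum, while the median of their regions was near 0 (-0.0075). The MHC and peptide loading list had a ratio of 0.821 (0.805 to 0.837), with less in 12 of 17 genes and a promoter median of -0.34 over 9 promoters. Its 53 other regions had a median of 0.05. Of 62 compared regions 8 (12.9%) were higher and 3 (4.84%) lower, against 11.0% and 1.68% of all regions. Cd74, the invariant chain of MHC class II, had 86.5 RPKM at 1 h, against 180 RPKM at 0 h at its promoter, and fell past 2-fold there. Tapbp, which encodes tapasin of peptide loading, had 42.7 RPKM at 1 h, against 99.8 RPKM at 0 h in its 1 region. H2-Aa, a class II chain, had 121 RPM at 1 h and 162 at 0 h. Ciita, the master regulator of class II genes, was an exception, with 333 RPM at 1 h and 273 at 0 h.

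Cytokine and TNF family genes had more of the RelB reads at 1 h. The inflammatory cytokine list had a ratio of 1.16 (1.14 to 1.17), with 30 of 161 compared regions higher (18.6%) and 6 lower (3.73%), both above the 11.0% and 1.68% of all regions. Of 17 genes 9 had more and 4 had less, beyond counting error. Its 14 promoters had a median log2 of 0.76 and its 147 other regions of 0.26. Tnf had 130 RPKM at 1 h, against 66.0 RPKM at 0 h at its promoter, just under 2-fold, and Il1b had 49.3 RPKM at 1 h, against 24.9 RPKM at 0 h. Summed over its regions Il1b had less, with 154 RPM at 1 h and 172 at 0 h, and 0 of its regions were 2-fold higher and 1 lower. Ebi3, a subunit of interleukins 27 and 35, had 101 RPKM at 1 h, against 35.6 RPKM at 0 h at its promoter, its 1 region. Csf2, the GM-CSF gene, had 38.7 RPM at 1 h and 18.1 at 0 h. Il6 and Il12b, with the most RelB reads of the list, had 719 and 495 RPM at 1 h and 613 and 489 at 0 h. The Il6 promoter had 37.7 RPKM at 1 h, against 28.4 RPKM at 0 h. The TNF superfamily list had a ratio of 1.21 (1.19 to 1.23), with 38 of 194 regions higher (19.6%) and 0 lower. Tnfsf9, the ligand gene of 4-1BB, had 66.7 RPKM at 1 h, against 18.1 RPKM at 0 h at its promoter. Cd40 had 133 RPKM at 1 h, against 68.7 RPKM at 0 h at its promoter. Tnfrsf1b, a TNF receptor gene, had 564 RPM at 1 h and 466 at 0 h, while Tnfsf4, the OX40 ligand gene, had 490 RPM at 1 h and 498 at 0 h.

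Chemokine genes had a ratio of 1.05 (1.03 to 1.06), with 17 of 80 regions higher (21.3%, against 11.0% of all) and 1 lower. Cxcl2 had 27.3 RPKM at 1 h, against 15.8 RPKM at 0 h at its promoter, and Ccl3 had 23.2 RPKM at 1 h, against 12.6 RPKM at 0 h. Ccl22 and Ccl5, the chemokine genes with the most RelB reads, had 415 and 401 RPM at 1 h and 386 and 330 at 0 h. Of 17 genes 10 had more and 4 had less. Among those with less were Cxcl16, with 181 RPM at 1 h and 331 at 0 h, and Cxcl11, Cxcl10 and Cxcl9, with ratios of 0.638, 0.769 and 0.894. The DUSP phosphatases, which switch off MAP kinases, had the highest ratio, 1.23 (1.201 to 1.25), with 10 of 78 regions higher (12.8%, near the 11.0% of all) and 0 lower. Dusp1 had 119 RPKM at 1 h, against 62.8 RPKM at 0 h 21742 bp upstream. Dusp2 had 261 RPM at 1 h and 128 at 0 h, and Dusp4 had 305 RPM at 1 h and 316 at 0 h. SOCS and STAT genes, which carry and restrain cytokine signals, had a ratio of 1.15 (1.13 to 1.17). Socs3 had 364 RPM at 1 h and 250 at 0 h, whereas Socs1 had 469 RPM at 1 h and 531 at 0 h.

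Immediate early factors had a ratio of 1.06 (1.04 to 1.07), with 34 of 214 regions higher (15.9%, against 11.0% of all) and 1 lower (0.467%, against 1.68%). Fos had 632 RPM at 1 h and 447 at 0 h, and Fosl2 had 440 RPM at 1 h and 356 at 0 h, each with 7 higher regions. Junb had less, with 114 RPM at 1 h and 201 at 0 h. Interferon-stimulated genes had a ratio of 1.06 (1.03 to 1.08), with Oas1a, an antiviral sensor gene, at 7.81 RPKM at 1 h, against 2.14 RPKM at 0 h at its promoter. Usp18, a gene of an ISG15-removing protease, had a ratio of 1.14. Oas2, with 15 reads at 1 h and 7 at 0 h, was not enriched in either library. Survival genes had a ratio of 1.03 (1.02 to 1.05), with Bcl2l11, the gene of BIM, at 1.15 and Cflar, a caspase-8 inhibitor gene, at 0.809. Dendritic cell costimulation genes had a ratio of 1.02 (1.01 to 1.03), with Cd86 at 345 RPM at 1 h and 233 at 0 h and Pdcd1lg2, the PD-L2 gene, at a ratio of 0.830. LPS sensing genes had a ratio of 0.922 (0.901 to 0.944), with Ly96, the gene of MD-2, at 0.777 and Tlr2 at 0.994.

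**Figure D5:**
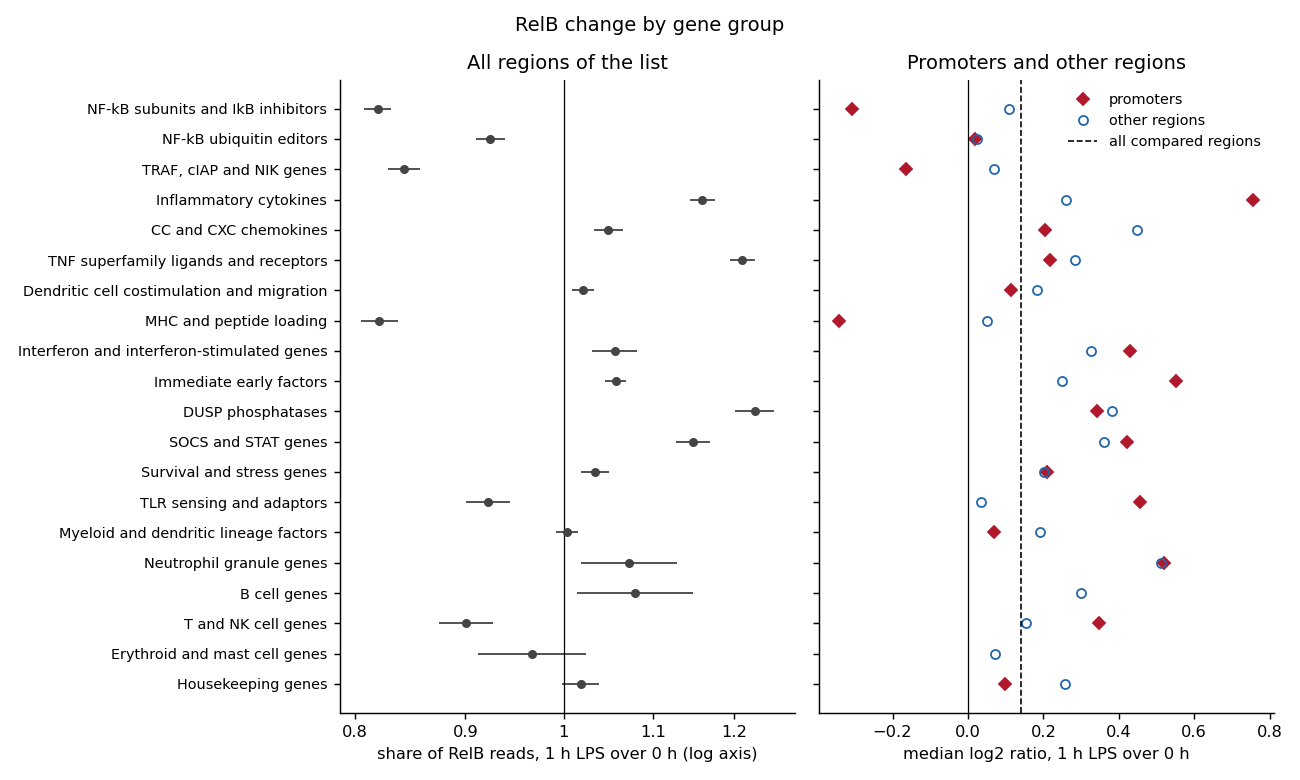
Left, share of RelB reads of each gene list at 1 h LPS over that at 0 h (log axis), with exact 95% counting intervals; right, median log2 ratio of its promoters (lists with 3 or more) and of its other regions, the dashed line marking all compared regions at 0.14. NF-kB, TRAF and MHC lists lie below 1 with promoter medians below 0, and cytokine, TNF superfamily and DUSP lists lie above 1; a scaling on unenriched regions shifts all medians down, those of costimulation and myeloid lineage lists to -0.01.

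Some lists of lineage genes reached medians and shares as high as those of LPS-response genes. Neutrophil granule and B cell genes had the highest medians of the 20 lists, at 0.51 over 28 regions and 0.47 over 24, against 0.40 for chemokines and 0.37 for DUSP genes. B cell genes also had the highest share of higher regions, 6 of 24, with 0 lower, and neutrophil genes had 3 of 28 higher. Housekeeping genes had a ratio of 1.02 (0.998 to 1.04), with 9 of 87 regions higher (10.3%) and 0 lower, near the 11.0% and 1.68% of all regions. Myeloid lineage genes had a ratio of 1.00 (0.992 to 1.01), with Irf4 at 1.105, Runx3 at 0.945 and Spi1, the PU.1 gene, at 172 RPM at 1 h and 247 at 0 h. Neutrophil granule genes had a ratio of 1.07 (1.02 to 1.13), with Prtn3 at 18.2 RPM at 1 h and 6.46 at 0 h and Mmp9 and Ltf at ratios of 0.816 and 0.956. B cell genes had a ratio of 1.08 (1.01 to 1.15), with Fcer2a, the low-affinity IgE receptor gene, at 13.3 RPKM at 1 h, against 1.94 RPKM at 0 h. Ebf1 had 17.3 RPM at 1 h and 7.50 at 0 h, and Cr2 and Ms4a1 had ratios of 0.873 and 0.885. T and NK cell genes had a ratio of 0.901 (0.875 to 0.927), with a region 10346 bp upstream of Cd4 at 22.3 RPKM at 1 h, against 66.2 RPKM at 0 h. That ratio also counts Rit1 (0.834), a Ras-like GTPase gene on chromosome 3 that is not a T or NK cell gene. Lck had 3 reads at 1 h and 22 at 0 h in its 1 region, a ratio of 0.152 (0.0292 to 0.508), and Klrb1c and Gata3 had ratios of 0.715 and 1.19. Erythroid and mast cell genes had a ratio of 0.966 (0.912 to 1.02), with Gata1 at 7 reads at 1 h and 23 at 0 h. ChIP reads give no expression, so these lists do not check the cell type of the label.

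RelA at 1 h was enriched at higher regions about as often as at regions within 2-fold, and less often at lower regions. The split itself sorts regions by their RelB signal at 1 h. RelB was enriched at 1 h at 100% of the higher regions and at 45.8% of the lower, whose median was 2.14 RPKM. The RelA shares were not separated from this. RelA was enriched over input at 85.2% of the higher regions, with a median of 6.30 RPKM, at 49.4% of the lower regions, with a median of 2.21 RPKM, and at 87.1% of the regions within 2-fold. A RelA library at 0 h was not analysed here, so no change of RelA was set beside that of RelB. Higher regions lay at a median of 20477 bp from the nearest TSS and lower regions at 28114 bp, against 16884 bp for regions within 2-fold.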

How the data were processed

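One table was used, with RPKM values per region and library, calculated and deposited by the authors for 93611 regions, per the file headers. Other deposited columns hold, per the file headers, a gene name, a class of annotation and a TSS distance in bp. HISAT2, HOMER, bedtools and the build mm9 are named in the submitters' processing notes, with no version or role, and the choice of regions is not given in the sources used here. RPM are reads of a gene or list per 1000000 reads in regions. All 7 value columns mapped to a sample by name, and 0 did not. Each RPKM value multiplied by region length came out as a whole number of the smallest such products (100% within 0.01 read), which gave reads per region and library totals. No value lay under 1 read, so a read added to each count is possible, and printed reads may be 1 too high. No molecular identifiers mark duplicate reads, so intervals cover counting error only.

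Regions of a gene are those annotated to it within 100 kb of its TSS. Named genes were, per class, the 5 strongest regions by mean RPKM; the 8 largest rises and 8 largest falls from 10 RPKM; the 6 highest and 6 lowest genes with 5 or more compared regions; and per list the 2 genes with most reads and those past 2-fold. Other genes were chosen after their values were seen. Members and lists were chosen with earlier results of these data known. List symbols were matched by name, 1 of them by an older symbol, and such a match can reach another gene. The values of the T and NK cell list include Rit1 on chromosome 3, which does not belong to it. Python 3.11.15, numpy 2.4.6, pandas 2.3.3, scipy 1.17.1 and matplotlib 3.10.9 were used. The comparison was also run on simulated reads, with changes planted only in regions at 10 RPKM or more. That simulation held no variation between libraries beyond counting error, so it does not bear on such variation. Alternatives covered the pseudocount, filters, scaling, background subtraction and the distance to genes.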

Additional observations from a re-analysis of the deposited data

Results flagged for a closer look

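In all 3 main classes the median log2 change from 0 h to 1 h had opposite signs in the genotypes, and this difference was not tested, since each genotype had 1 library per time. Over promoters compared in WT the median was -0.82 in RelBko and 0.17 in WT. Over introns it was -0.42 in RelBko and 0.13 in WT, and over intergenic regions -0.39 in RelBko and 0.12 in WT. The RelBko libraries had 4.62% of reads in regions at 1 h and 7.41% at 0 h. The WT medians turn below 0 when scaled on regions enriched in neither library.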

How the results depend on the processing

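No paired analysis was possible because each group held 1 library, and for the same reason no replicate could be left out. Against 8901 regions higher and 1358 lower, a pseudocount of 0.1 RPKM gave 2057 lower, and one of 2 RPKM gave 4733 higher and 340 lower. A threshold of 1.5-fold gave 18581 and 6785, and a filter of 5 RPKM 5897 and 738. The lower count was 2511 with the median ratio set to 1 and 2779 scaled on unenriched regions. Class medians for promoters, introns and intergenic regions were 0.15, 0.11 and 0.10 with a pseudocount of 2 RPKM, and 0.18 for promoters with 0.1 RPKM. They were 0.0337, -0.0094 and -0.0169 with the median ratio set to 1, and -0.0107, -0.0515 and -0.0584 on unenriched regions. An alternative chosen after seeing the data, RelBko RPKM of the same time taken off, gave 0.57, 0.30 and 0.27. Differences in read shares, in percentage points, were 0.237, 0.0893 and -0.447 without the 1000 strongest regions. They were 0.380 for promoters and -0.706 for intergenic regions with the input taken off, and 1.63, -0.410 and -1.61 with the RelBko library taken off. The 5000 strongest regions overlapped by 75.2%. The costimulation and myeloid lineage medians turned to -0.0107 and -0.0106 on unenriched regions. Shifts under another scaling follow from its construction; for the other settings the cause was not tested. The count of lists above the median of all regions stayed at 13 or 14 of 20. Of the named regions, Traf3 dropped just under 2-fold with a pseudocount of 2 RPKM. With regions within 10 kb only, Il12a, Ptges, Traf2 and Cd4 were no longer past 2-fold, and Nfkbia, Chd2 and 9830107B12Rik were.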

Other observations

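Promoter base composition went with the share of higher regions. Matched promoters were split by observed over expected CpG into 3 groups of equal size. In the group with the lowest ratio (0.703 or less) 78 of 1529 (5.10%) were higher at 1 h and 10 lower, in the middle group 22 (1.44%) were higher and 3 lower, and in the highest group 13 of 1530 (0.850%) were higher and 4 lower. The medians were 0.16, 0.16 and 0.14, so the classes differed in the tail and little in the centre. The GC box GGGCGG was in 3194 matched promoters (69.6%; 35.7% of all RefSeq promoters), of which 1.85% were higher, against 3.87% of the 1394 without it.

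Some genes gathered many higher regions without a 2-fold change in sum. Cd44, the hyaluronan receptor gene, had 11 of 32 compared regions higher, with 680 RPM at 1 h and 505 at 0 h. Cmip had 11 of 31 higher and a ratio of 1.24. Dock10, a guanine exchange factor gene, had 10 of 43 higher and a ratio of 1.03. Itgb8, an integrin chain gene that activates TGF-beta, had 9 of 17 higher and 1 lower, with 197 RPM at 1 h and 119 at 0 h. These genes were chosen after their values were seen.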
